A study of Mus musculus with 51 samples.

Results

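Nucleolar ribosome biogenesis factors were followed as a group of 32 mouse genes, out of 18193 genes with a probe set of their own on the array. They are a fixed list of gene symbols: RNA polymerase I subunits, assembly factors of both ribosomal subunits, the proteins of small nucleolar RNA particles, and abundant nucleolar proteins. The list was chosen with earlier results of these data known. Its counts beside the shares of all genes are therefore description and not a test of the group. The data are 51 arrays, each of 1 single oocyte or embryo, in 13 groups. Metaphase II (MII) oocytes of the hybrid strain B6D2F1 made up 3 arrays. Embryos from in vitro fertilisation (IVF) had B6D2F1 gametes on both sides, with 3 arrays at each of 6 stages. Clones were made by Sertoli cell nuclear transfer, in which the nucleus of a B6CBF1 Sertoli cell, which nurses germ cells in the testis, is placed into a B6D2F1 oocyte, with 5 arrays at each stage. Embryos of both kinds grew in KSOM medium and were collected 16 (1-cell), 32 (2-cell), 48 (4-cell), 62 (8-cell), 72 (morula) and 84 hours (blastocyst) after sperm addition or activation. The nuclear genomes of clones and IVF embryos thus differ in strain as well as in origin, and strain and method cannot be told apart here. Donor nuclei were male and the sex of the IVF embryos was not determined here, so a part of sex in the differences was not tested.

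Ribosomes are built in the nucleolus. RNA polymerase I transcribes a long precursor RNA there, on which the small subunit processome, chemical modification particles and large subunit assembly factors act in turn. The mouse oocyte carries a compact nucleolus precursor body that does not transcribe ribosomal RNA, and the embryo rebuilds working nucleoli when its own genome is activated around the 2-cell stage. The series asks how gene expression in Sertoli cell clones differs from that in fertilised embryos over preimplantation development.

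Values are log2 and centred for each probe set, so 0 is a baseline of that gene's own probe set and only differences between arrays carry information. All tests are limma fits over 18193 genes with Benjamini-Hochberg adjustment, and a gene is called past the threshold at an adjusted p below 0.05. A difference is followed by ± its standard error, and n is 5 clones and 3 IVF embryos unless stated. Nothing in the labels says which embryos shared a parent or a day, so p-values measure the spread between single embryos. An array reads amplified RNA of a whole embryo, so fewer transcribing cells and less RNA per cell cannot be told apart. The median over a whole array lay between -0.062 and 0.057 throughout. A value is thus relative to the other genes of its array and does not show the RNA amount of an embryo.

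Stage markers moved with the labels: the mean of 12 oocyte markers was 5.85 to 6.02 in MII oocytes and -2.61 to -2.49 in IVF blastocysts, and that of 8 trophectoderm markers was 4.75 to 4.95 in IVF blastocysts and -1.69 to -1.11 in IVF 1-cell embryos. In clones the trophectoderm mean was 4.56 to 5.16 at the blastocyst stage. Of the donor-type markers, 12 Sertoli cell genes, none passed in 1-, 2- or 4-cell clones, 2 were lower in 8-cell clones, and 1 was higher in morulae and 1 in blastocysts. The Y-linked gene Eif2s3y was at -5.25 in clone replicate 4 of the 8-cell stage and at -5.42 to -5.37 in oocytes, against -2.70 to 1.23 in the other 8-cell clones, although donor nuclei were male. The main tests at the 8-cell stage and of the steps into and out of it are given without that library too. Without it 1 Sertoli cell gene was lower in 8-cell clones. The bacterial hybridisation controls, added during array processing, did not overlap between clones and IVF embryos at the first 4 stages. They were lower on clone arrays by -1.02 at the 1-cell stage and higher by 1.27, 1.30 and 0.83 at the 2-, 4- and 8-cell stages (exact permutation test, 2-sided, p = 0.0357, 0.0179, 0.0179 and 0.0357, adjusted 0.0918 over 18 quality tests). Where a quality measure does not overlap between the groups compared, a fit with it as a covariate cannot fully tell its part from that of the group.

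In fertilised embryos the genes as a group were lowest in oocytes, rose most into the 2-cell stage and were highest at the 4- and 8-cell stages. The median of the 32 genes on an array was -4.27 to -3.93 in oocytes and -3.52 to -2.45 in IVF 1-cell embryos. It was 0.03 to 0.80 at the 2-cell, 1.02 to 1.19 at the 4-cell and 1.10 to 1.23 at the 8-cell stage, and came down to 0.05 to 0.43 in morulae and -0.30 to -0.08 in blastocysts. Of the 32 genes 16 had their highest IVF mean at the 8-cell stage, where 10.6% of all genes had theirs, and none at the 1-cell stage, which held the highest mean of 26.2% of all genes. The 16 include all 3 RNA polymerase I subunits. Blastocysts held the highest mean of Fbl, Nop10, Nop16, Nop56 and Npm1, and morulae that of Dkc1, beside 18.4% and 9.36% of all genes. The 2- and 4-cell stages held that of 5 genes each, beside 12.2% and 23.2% of all genes. A highest mean is not a tested difference: none of the 32 genes passed in the step from the IVF 4- to the 8-cell stage.

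**Figure D1:**
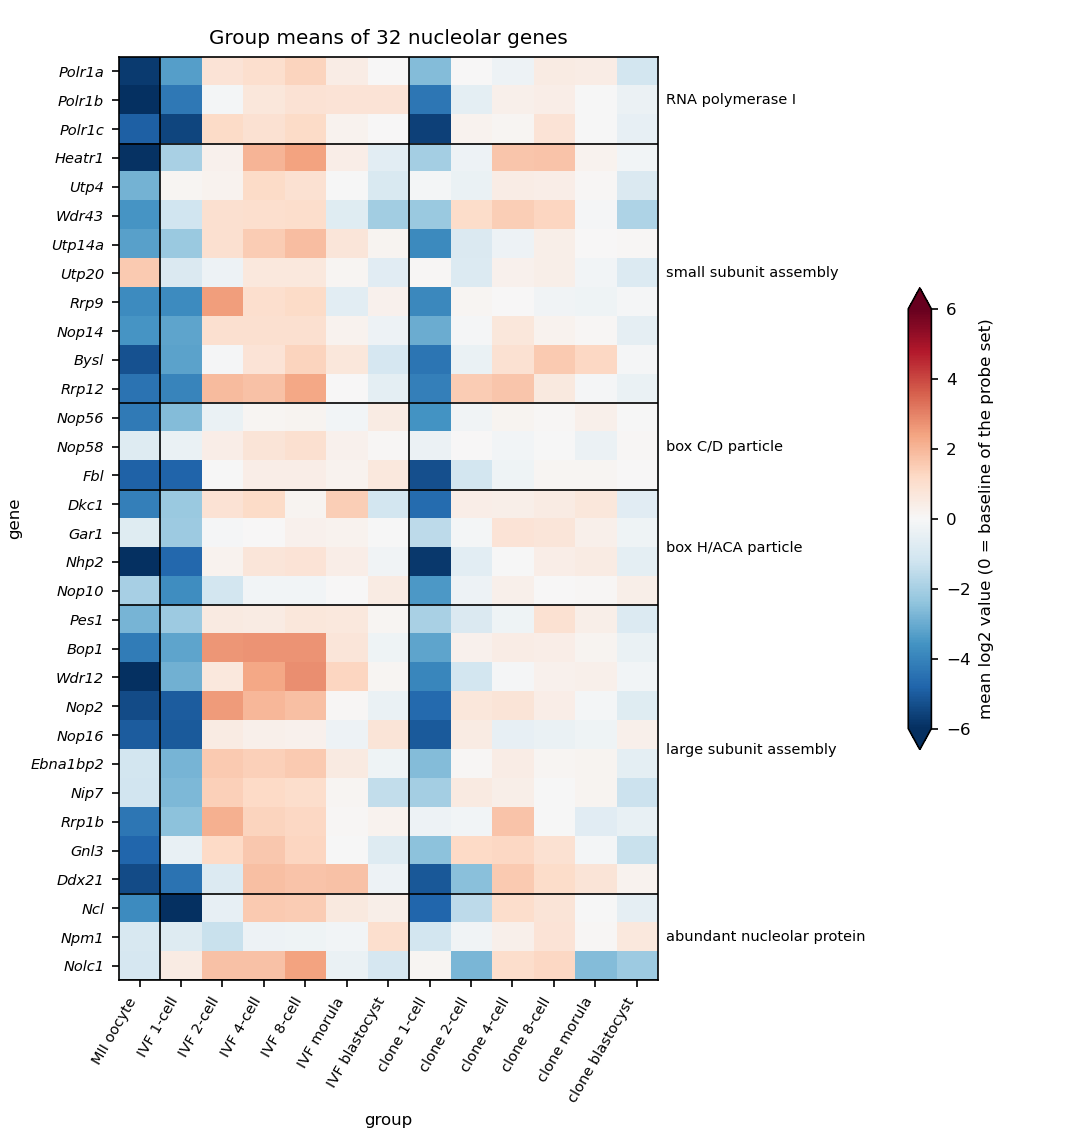
Mean log2 value of each of the 32 genes (rows, grouped by role) in the 13 groups (columns); red is above and blue below the baseline of the gene's own probe set. Nearly all rows are blue in oocytes and 1-cell embryos and turn at the 2-cell stage, and the IVF 4- and 8-cell columns are redder than the clone columns in the large subunit rows Bop1, Wdr12, Nop2, Ebna1bp2 and Nip7.

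From the MII oocyte to the IVF 1-cell embryo, 13 of the 32 genes rose and 6 fell, against 14.3% of all genes rising and 16.3% falling. The largest rises were those of Nhp2, a protein of box H/ACA particles that turn uridine into pseudouridine, by 4.39 ± 0.47, and of Gnl3 (nucleostemin), a nucleolar GTPase, by 4.31 ± 0.17. Heatr1, a processome scaffold that also supports RNA polymerase I transcription, rose by 3.98 ± 0.29 and Wdr12, a large subunit assembly factor, by 3.14 ± 0.38. Gnl3 lay at -4.75, -4.92 and -4.60 in the 3 oocytes and at -0.41, -0.57 and -0.36 in the 3 IVF 1-cell embryos. Nhp2 spread widely among oocytes, at -8.05, -8.46 and -10.71, and lay at -4.61, -4.70 and -4.75 at the 1-cell stage. Neither pair of groups overlapped. The 6 falls included Utp20, a late small subunit processome factor, by -2.40 ± 0.33, and Ncl (nucleolin), an abundant RNA-binding protein of the nucleolus, by -2.33 ± 0.32. Nop10 fell by -1.75 ± 0.49 and Ebna1bp2 by -1.71 ± 0.29. For Ncl the probe sets disagreed: 3 others rose, by 3.38 ± 0.29, 2.53 ± 0.15 and 1.26 ± 0.42 (limma over all probe sets, adjusted p between 4.69e-09 and 0.0347), so no direction can be given for the gene in this step. Utp20 was the one gene of the 32 with an oocyte mean above 0, with 1.68, 1.30 and 1.66 in oocytes and -0.34, -0.87 and -1.34 in IVF 1-cell embryos. The adjusted p of these 8 genes lay between 3.35e-11 and 0.0112. The other 11 genes past the threshold moved by less than the 4 named in their direction. Of these 11, Nop56 rose by 1.66 and Polr1a by 2.41, but another probe set of each fell. Those falls were -1.59 ± 0.32 and -1.96 ± 0.46 (limma over all probe sets, adjusted p = 0.00121 and 0.00371). Hybridisation controls lay between -0.80 and -0.47 in oocytes and 0.53 and 0.79 in IVF 1-cell embryos, and with them as a covariate 10 of the 32 genes passed.

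The first cleavage was the largest step. Between the IVF 1- and 2-cell stages 28 of the 32 genes rose and 1 fell, against 17.2% and 18.7% of all genes, and the median step was 3.58 where that of all genes was -0.01. All 10 large subunit assembly genes, all 4 box H/ACA genes and all 3 RNA polymerase I genes rose, as did 7 of 9 small subunit genes. Nop2, which methylates large subunit RNA, lay at -4.48, -5.11 and -5.31 in 1-cell and at 2.14, 2.71 and 2.83 in 2-cell IVF embryos, a rise of 7.53 ± 0.27 (adjusted p = 7.74e-12). Polr1c, a subunit shared by RNA polymerases I and III, went from -5.07, -5.23 and -6.24 to 0.71, 1.38 and 1.38, a rise of 6.67 ± 0.28. Rrp9, which binds the U3 small nucleolar RNA, rose by 6.27 ± 0.33, and Rrp12, a factor for export of the small subunit, by 5.85 ± 0.32. For each of these genes every 2-cell array lay far above every 1-cell array. Npm1 (nucleophosmin), a nucleolar chaperone, fell by -0.56 ± 0.21 (adjusted p = 0.0471). Steps of Nop58 (0.81), Utp20 (0.53) and Utp4 (0.10) did not pass. The probe set with the largest spread stood for each gene, which favours large steps: of the 34 other probe sets of these genes 14 rose and 3 fell in the IVF step, with a median of 0.49. The 3 falls were in genes counted as rising, Heatr1 (-2.58 ± 0.41), Ncl (-1.47 ± 0.42) and Wdr43 (-1.31 ± 0.19). When the hybridisation controls were a covariate, 20 genes rose in this step and none fell.

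The promoters of 28 of the 32 genes were matched in the RefSeq table (GRCm38.p6), and the 250 bases before the start were searched on both strands for 6 short motifs. CCGGAAG, the core of an ETS family site, lay in 8 of the 28 (28.6%; Gar1, Heatr1, Nhp2, Nip7, Nolc1, Nop2, Polr1c and Utp4) and in 7.83% of all 27025 genes in the table. The GC box GGGCGG lay in 67.9% of the 28 and 35.4% of all genes, and ATTGG, the CCAAT box, in 28.6% and 37.5%. The Myc-type E-box CACGTG lay in 3.57% (Nop2) and 6.86%, TGACGTCA in 0 of 28 and 1.77%, and AAGATGGCG in 0 of 28 and 0.71%. A match is a run of letters and not a measured binding site. The genes of the table were not matched to the 28 for base composition or expression, so these shares are not adjusted for either. Promoters of 4 of those 8 genes, each named in the results, are printed 5′ to 3′ up to the last base before the start, with CACGTG and CCGGAAG in capitals to show where the ETS core sits. All 4 genes rose at the first cleavage in IVF embryos. In clones the probe set that stood for Nolc1 fell in that step while its other probe sets rose, by 3.97 and 2.82, so no direction can be given for Nolc1. The other 3 genes rose.
Nop2 (chr6:125131633-125131882, plus strand): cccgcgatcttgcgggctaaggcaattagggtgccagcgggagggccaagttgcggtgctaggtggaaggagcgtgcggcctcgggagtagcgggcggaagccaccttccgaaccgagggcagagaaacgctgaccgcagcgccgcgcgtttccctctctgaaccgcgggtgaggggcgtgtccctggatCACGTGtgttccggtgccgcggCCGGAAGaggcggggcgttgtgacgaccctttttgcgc
Nip7 (chr8:107056627-107056876, plus strand): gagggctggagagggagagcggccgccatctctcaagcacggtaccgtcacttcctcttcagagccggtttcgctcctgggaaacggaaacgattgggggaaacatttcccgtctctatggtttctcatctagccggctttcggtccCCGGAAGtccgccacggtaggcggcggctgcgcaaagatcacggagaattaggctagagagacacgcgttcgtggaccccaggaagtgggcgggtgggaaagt
Nolc1 (chr19:46075597-46075846, plus strand): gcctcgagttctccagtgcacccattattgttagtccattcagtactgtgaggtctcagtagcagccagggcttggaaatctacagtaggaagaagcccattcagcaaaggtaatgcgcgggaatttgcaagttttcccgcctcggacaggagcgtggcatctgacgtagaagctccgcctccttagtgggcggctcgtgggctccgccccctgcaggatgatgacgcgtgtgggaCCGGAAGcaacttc
Polr1c (chr17:46248046-46248295, minus strand): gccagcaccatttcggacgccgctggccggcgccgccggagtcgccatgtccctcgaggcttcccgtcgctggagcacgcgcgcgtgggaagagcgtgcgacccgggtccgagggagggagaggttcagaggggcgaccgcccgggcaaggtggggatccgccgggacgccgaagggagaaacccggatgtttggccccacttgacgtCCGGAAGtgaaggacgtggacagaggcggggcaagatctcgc
The ETS core starts 38 bases before the start in Nop2, 103 in Nip7, 14 in Nolc1 and 42 in Polr1c, and the E-box 60 bases before it in Nop2. For Wdr12 the table lists several starts, and none of its windows holds either motif. Bop1, Fbl, Rrp12 and Npm1 were not matched.

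After the first cleavage the IVF steps were smaller. From the 2- to the 4-cell stage 6 genes rose and 1 fell, against 10.5% and 13.3% of all genes. The RNA helicase gene Ddx21, which supports early rRNA transcription and processing, rose by 2.60 ± 0.39 from -1.39, -0.46 and -0.54 to 1.84, 1.21 and 2.38. Ncl rose by 2.06 ± 0.32, Heatr1 by 1.80 ± 0.29 and Wdr12 by 1.66 ± 0.38, and Rrp9 fell by -1.52 ± 0.33 (adjusted p of the 5 between 0.000145 and 0.00434). From the 4- to the 8-cell stage none of the 32 genes passed in limma and 1 had an unadjusted p below 0.05, where 1.23% of all genes rose and 0.759% fell.

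From the IVF 8-cell stage to the morula 13 genes fell and 1 rose, where 10.1% of all genes fell and 7.09% rose. Nolc1 (Nopp140), a chaperone of small nucleolar RNA particles, fell by -2.83 ± 0.43, Rrp12 by -2.27 ± 0.32, Heatr1 by -2.04 ± 0.29 and Bop1 by -1.94 ± 0.29. Nolc1 lay at 3.07, 2.38 and 1.76 in 8-cell embryos and -1.23, -0.29 and 0.25 in morulae, with no overlap. Dkc1, the pseudouridine synthase of box H/ACA particles, rose by 1.30 ± 0.42 (adjusted p = 0.0432). It then fell into the blastocyst by -2.56 ± 0.42, from 1.32, 1.99 and 1.10 to -1.05, -1.01 and -1.21. In that last IVF step 10 genes fell and 2 rose, against 10.1% and 12.6% of all genes. The falls after Dkc1 were Ddx21 by -2.08 ± 0.39, Bysl, a small subunit factor, by -1.69 ± 0.42 and Nip7, a large subunit factor, by -1.61 ± 0.22. The 2 rises were Npm1 by 1.17 ± 0.21 and Nop16 by 1.08 ± 0.26, although the other probe set of Npm1 fell by -0.75 ± 0.16 (adjusted p = 0.004). The 3′/5′ difference of the Actb and Gapdh controls, a measure of RNA integrity and amplification, was -0.81 to -0.66 in IVF morulae and -2.36 to -1.63 in blastocysts, and with it as a covariate 2 of these 12 genes passed; with the hybridisation controls as a covariate 3 did, against 8 of 14 in the step before.

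Most of these genes rose at the first cleavage in clones too. Between the clone 1- and 2-cell stages 26 genes rose and 2 fell, against 16.7% and 24.6% of all genes, with a median step of 3.06. Polr1c rose by 5.81 ± 0.32, Rrp12 by 5.63 ± 0.29, Nop16 by 5.50 ± 0.28 and Nop2 by 5.37 ± 0.30 (adjusted p between 4.53e-15 and 3.07e-14). Nolc1 fell by -2.87 ± 0.58 and Utp20 by -0.87 ± 0.27, but the other 2 probe sets of Nolc1 rose, by 3.97 ± 0.30 and 2.82 ± 0.33 (adjusted p = 2.09e-11 and 8.05e-08). The other 34 probe sets of these genes had 19 rises and 1 fall in this step, with a median of 0.73. That fall was in Wdr43 (-2.22 ± 0.30), which is counted among the rises. From the 2- to the 4-cell stage 14 genes rose and 1 fell, against 15.1% and 14.7% of all genes: Ddx21 rose by 4.07 ± 0.38, Nolc1 by 3.83 ± 0.58, Ncl by 2.63 ± 0.36 and Heatr1 by 1.95 ± 0.36, and Nop16 fell by -0.95 ± 0.28.

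In the later clone steps few genes rose. From the 4- to the 8-cell stage Bysl rose by 0.65 ± 0.18, while Rrp12 fell by -1.06 ± 0.29 and Rrp1b, a nucleolar partner of protein phosphatase 1, by -1.76 ± 0.44, where 2.33% of all genes rose and 4.17% fell. Without clone replicate 4 of the 8-cell stage, 1 gene rose and 1 fell in this step. From the 8-cell stage to the morula 4 genes fell and none rose, against 7.61% and 9.81% of all genes. They were Nolc1 (-3.86 ± 0.58), Heatr1 (-1.50 ± 0.36), Wdr43 (-1.35 ± 0.18) and Gnl3 (-1.06 ± 0.22), and without the same library 6 genes fell. Into the blastocyst 10 genes fell and none rose, against 17.6% and 16.9%, led by the processome gene Wdr43 (-1.78 ± 0.18), the RNA polymerase I core subunit gene Polr1a (-1.55 ± 0.38), Nip7 (-1.45 ± 0.23) and Dkc1 (-1.34 ± 0.30). Another probe set of Dkc1 rose by 0.81 ± 0.23 (adjusted p = 0.00772), and 1 of Polr1a was at 0.84 (0.0538). In clones the 4-cell stage held the highest mean of 12 of the 32 genes and the 8-cell stage that of 10, beside 16.2% and 17.0% of all genes.

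**Figure D2:**
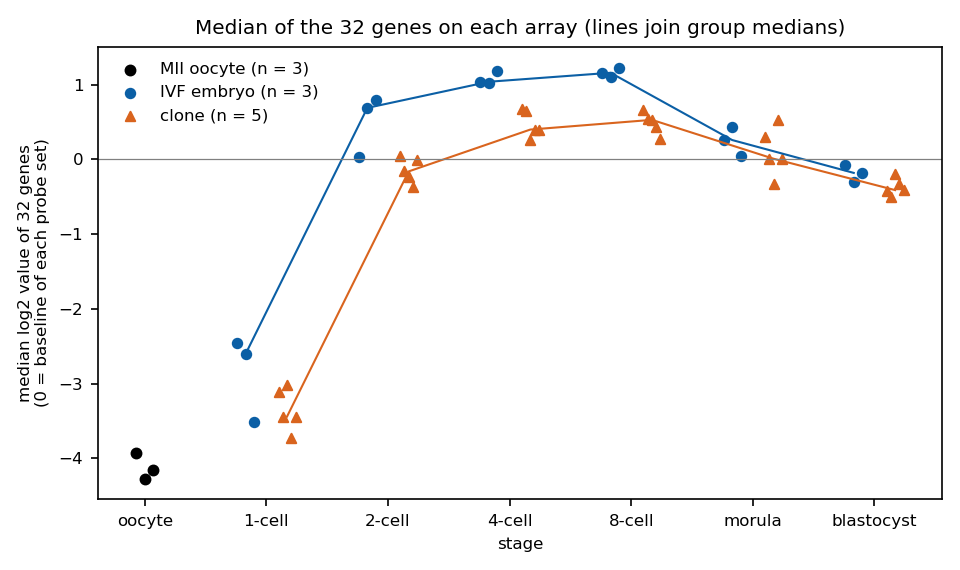
Median log2 value of the 32 genes on each array (vertical axis, 0 is the baseline of each probe set) by stage (horizontal axis), for MII oocytes (black), IVF embryos (blue circles) and clones (orange triangles); lines join the group medians. At the 4- and 8-cell stages all clones (0.26 to 0.67) lie below all IVF embryos (1.02 to 1.23).

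The first cleavage step itself was tested for a difference between clones and IVF embryos in a fit of all 51 arrays. It differed for 14 of the 32 genes, smaller or reversed in clones for 9 and larger in clones for 5, where 11.2% of all genes differed in either direction. Rrp1b had the largest difference, -4.45 ± 0.85 (adjusted p = 0.000287): it went from -1.07, -1.30 and -5.01 to 1.69, 1.84 and 2.87 in IVF embryos and did not pass in clones, at -0.95 to 0.34 before and -1.92 to 0.80 after. Nolc1 differed by -4.12 ± 0.83, since it rose by 1.25 ± 0.43 in IVF embryos and fell in clones. Ncl differed by -2.44 ± 0.53, Bop1 by -2.36 ± 0.47, Rrp9 by -2.27 ± 0.56 and Nop2 by -2.16 ± 0.44. Ebna1bp2, a large subunit assembly factor, differed by -1.76 ± 0.39, Nip7 by -1.59 ± 0.35 and Utp20 by -1.40 ± 0.43. The 5 larger clone steps were those of Gnl3 (2.07 ± 0.32), Dkc1 (1.93 ± 0.51), Npm1 (1.49 ± 0.39), Wdr43 (1.21 ± 0.32) and Nop56 (1.18 ± 0.26), the last a core protein of box C/D particles. Gnl3 and Wdr43 reached like 2-cell means in both kinds of embryo, 1.21 and 1.11 in clones and 1.19 and 0.94 in IVF embryos, and were lower in clones beforehand. Adjusted p of the 14 lay between 1.31e-05 and 0.0277. With the hybridisation controls as a covariate Gnl3, Nop56 and Npm1 passed, 3 genes in all and each larger in clones, while Nip7 was at -0.11, Nop2 at -0.67, Bop1 at -1.19 and Ncl at -1.32. After quantile normalization again Bop1, Nolc1 and Rrp1b passed, also 3. Other probe sets went against 2 of the 14 calls past the threshold: the 4 others of Ncl were at 0.68, 0.99, 2.22 and 0.64 (adjusted p = 0.777, 0.117, 0.0254 and 0.0299), and the 2 others of Nolc1 at 0.85 and 1.54 (0.277 and 0.0453). Those of Bop1 (0.18), Ebna1bp2 (-0.01 and 0.00), Rrp1b (-1.42 and 0.22), Nip7 (-1.98), Dkc1 (0.34 and 0.24), Npm1 (0.19), Wdr43 (-0.90) and Nop56 (-0.92) did not pass.

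**Figure D3:**
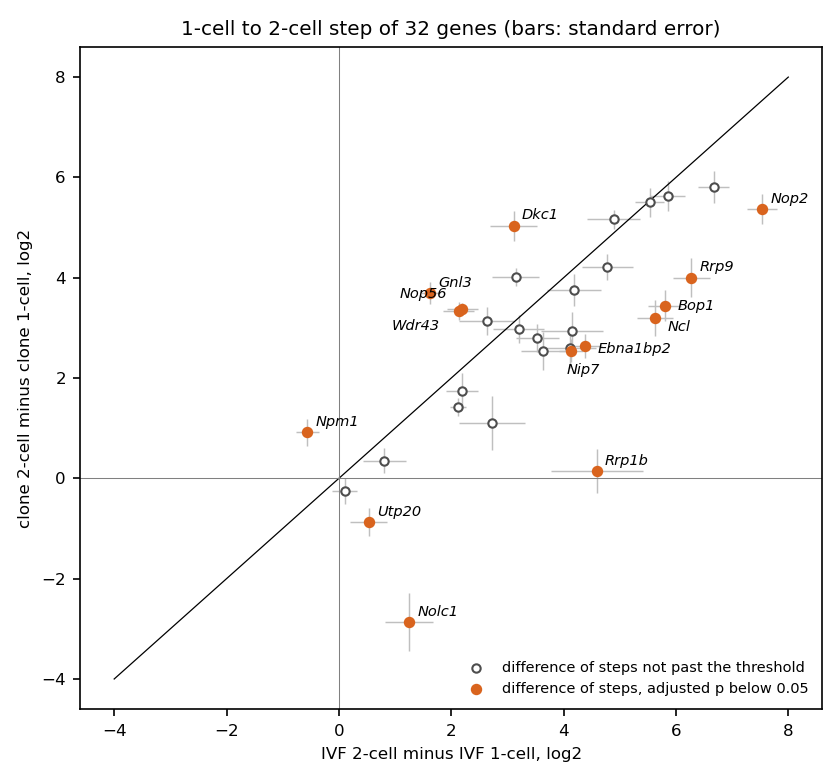
Step from the 1-cell to the 2-cell stage in IVF embryos (horizontal) and clones (vertical) for each of the 32 genes, log2 with standard errors; the diagonal marks equal steps. Filled points are the 14 genes whose steps differed, 9 below and 5 above the diagonal; Nolc1, Utp20 and Utp4 lie below 0 in clones.

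At the 1-cell stage, 16 hours after sperm addition or activation, 4 of the 32 genes were lower in clones and none higher, against 2.79% of all genes lower and 3.52% higher. The median difference was -0.10, and 19 of 32 genes lay below 0. Gnl3 was lower by -2.04 ± 0.21 (adjusted p = 0.00566, 4.10-fold), with clones at -2.16, -3.03, -2.24, -2.29 and -2.69 against the IVF values given above. Wdr43, a processome subunit of the module that binds the start of the precursor, lay at -1.35, -1.16 and -1.08 in IVF embryos and at -2.50, -2.52, -2.14, -2.07 and -1.96 in clones, a difference of -1.04 ± 0.16 (adjusted p = 0.0148). Neither gene overlapped between the groups. Utp14a, a processome protein encoded on the X chromosome, lay at -2.0, -2.06 and -2.61 in IVF embryos and at -4.21, -3.34, -3.69, -4.16 and -3.75 in clones, lower by -1.60 ± 0.25 (adjusted p = 0.0155). Dkc1, also X-linked, lay at -1.62, -2.58 and -2.46 against -4.16, -5.37, -3.55, -5.02 and -5.03, lower by -2.41 ± 0.48 (adjusted p = 0.0353). The Dkc1 call was lost on leaving out any of 7 of the 8 arrays (highest adjusted p 0.114). The Utp14a call was lost without IVF replicate 1 or 2 (highest 0.0641) and the Wdr43 call without IVF replicate 2 or 3 (0.0595). Leaving out 1 array left 1 to 4 genes past the threshold, and the Gnl3 call held each time (highest 0.0237). Once the hybridisation controls, which differed here, were a covariate only Gnl3 of the 4 passed (-2.12, adjusted p = 0.0394). The other probe sets of Wdr43 (-0.85) and Dkc1 (-0.72 and -0.28) were negative and not past the threshold, and that of Utp14a was at -0.05.

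At the 2-cell stage 5 genes were lower in clones and none higher, where 1.86% of all genes were lower and 0.511% higher. The median difference of the 32 genes was -0.81 and 27 lay below 0, while the median of all genes was 0.00. Bop1 and Wdr12 encode partners of Pes1 in the PeBoW complex, which is needed to process the large subunit precursor. Bop1 lay at 2.23, 2.60 and 3.10 in IVF embryos and at 0.89, -0.14, 0.65, -0.09 and 0.00 in clones, lower by -2.39 ± 0.32 (adjusted p = 0.0214, 5.23-fold). Wdr12 lay at 0.50, 0.17 and 1.27 against -0.95, -0.71, -1.49, -1.14 and -1.26, lower by -1.76 ± 0.28 (adjusted p = 0.0343). All clones lay below all IVF embryos for both. Nop2 had IVF values of 2.14, 2.71 and 2.83 and clone values of 0.64, 1.07, 1.07, 0.19 and 0.53, lower by -1.86 ± 0.26 (adjusted p = 0.0242). Rrp9 had 1.95, 2.82 and 2.77 against 0.52, -0.31, -0.10, -0.28 and 0.89, lower by -2.37 ± 0.36 (adjusted p = 0.0295). Nolc1 differed most in size, at 1.89, 1.73 and 1.64 in IVF embryos and -1.56, -4.30, -2.66, -1.18 and -4.08 in clones, lower by -4.50 ± 0.81 (adjusted p = 0.0460). Clones spread widely for Nolc1, yet none reached the IVF range. The third PeBoW gene, Pes1, was at -1.41 and did not pass. Npm1 went the other way, at 1.12 ± 0.22, with an adjusted p of 0.0573.

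The 2-cell calls rest on narrow margins. Leaving out 1 array left 0 to 4 genes past the threshold: Bop1 and Nop2 were each lost in 4 of 8 such fits, Rrp9 in 6, Wdr12 and Nolc1 in 7 (highest adjusted p from 0.0694 for Bop1 to 0.137 for Nolc1). No gene passed with either quality measure as a covariate or after quantile normalization again, while Bop1 was at -1.68 with the hybridisation controls and -2.65 with the 3′/5′ difference. With the hybridisation controls Wdr12 was at -0.59, Nop2 at -1.31, Nolc1 at -2.22 and Rrp9 at -3.24. The other probe sets of Nolc1 were at 0.41 and 0.83 and that of Bop1 at 0.11, none past the threshold; those of Wdr12 were at -0.60 and 0.01. The hybridisation controls were 0.57 to 1.22 in clones and -0.73 to -0.23 in IVF embryos. As these ranges do not overlap, the fit with that covariate cannot tell array processing from the kind of embryo. Their part in the result was not tested further.

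At the 4-cell stage 4 genes were lower and 1 higher in clones, against 1.80% and 0.462% of all genes; the median difference was -0.68 and 25 of 32 lay below 0. Wdr12 lay at 2.66, 2.00 and 2.25 in IVF embryos and at 0.15, -0.39, 0.00, 0.34 and -0.42 in clones, lower by -2.37 ± 0.23 (adjusted p = 0.00750, 5.17-fold). Bop1 lay at 2.68, 2.90 and 2.55 against 0.76, 0.97, 0.35, 0.22 and -0.08, lower by -2.27 ± 0.25 (adjusted p = 0.00992). The gaps of both exceed 1 log2 unit with no overlap. Nip7 lay at 1.10, 1.21 and 1.27 against 0.53, 0.20, 0.32, 0.31 and 0.42, lower by -0.84 ± 0.08 (adjusted p = 0.00750). Nhp2 lay at 0.64, 0.85 and 0.67 against 0.00, -0.19, 0.09, 0.06 and 0.02, lower by -0.72 ± 0.08 (adjusted p = 0.0103). Its particle partner Gar1 was higher in clones by 0.78 ± 0.11 (adjusted p = 0.0195), at 0.62 to 0.99 in clones and -0.17 to 0.15 in IVF embryos. The 2 partners thus moved in opposite directions at this stage, while Dkc1 was at -0.82 and Nop10 at 0.47, neither past the threshold. Each of the 5 calls held on leaving out any 1 array (highest adjusted p 0.0494, for Gar1). With the hybridisation controls as a covariate none passed, with Wdr12 at -2.82, Bop1 at -0.59, Nip7 at -0.63 and Nhp2 at -0.77. With the 3′/5′ difference Wdr12 (-2.39, adjusted p = 0.0498) and Nhp2 (-0.84, adjusted p = 0.0217) did, and Bop1 was at -2.18 (0.0683). Other probe sets of Wdr12 were at -1.35 and 0.03, of Bop1 at -0.03, of Nip7 at 0.94 and of Nhp2 at -0.73, none past the threshold.

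**Figure D4:**
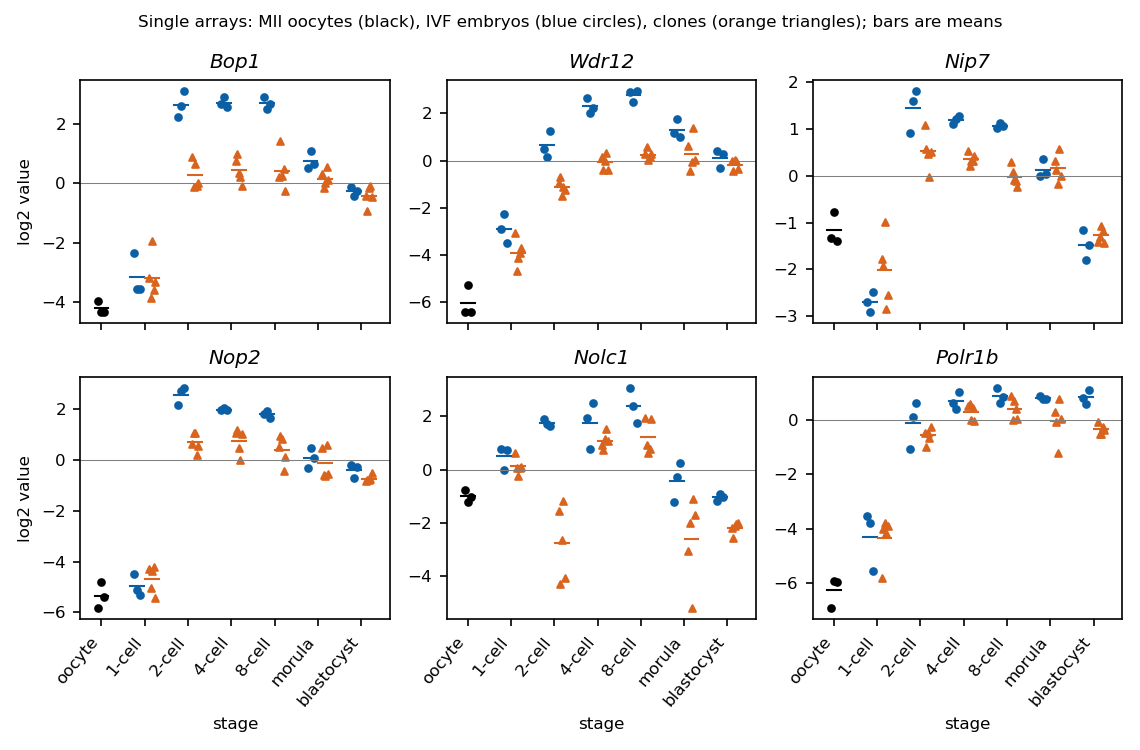
Log2 values of 6 genes on single arrays by stage: MII oocytes black, IVF embryos blue circles, clones orange triangles, bars the group means; each panel has its own vertical axis. Bop1 and Wdr12 separate clones from IVF embryos at the 2-, 4- and 8-cell stages, Nip7 at the 4- and 8-cell stages, Nop2 at the 2-, 4- and 8-cell stages (past the threshold at the 2-cell stage), Nolc1 at the 2-cell and blastocyst stages, and Polr1b at the blastocyst stage.

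At the 8-cell stage 5 genes were lower in clones and none higher, against 4.47% and 2.15% of all genes, and the 5 include 4 of the 10 large subunit assembly genes. The median difference was -0.61, and 25 of 32 lay below 0. Wdr12 lay at 2.90, 2.50 and 2.95 in IVF embryos and at 0.29, 0.57, 0.01, 0.14 and 0.28 in clones, lower by -2.52 ± 0.16 (adjusted p = 0.00108, 5.75-fold). Ebna1bp2 lay at 1.69, 1.67 and 1.35 against 0.29, 0.00, 0.09, 0.39 and -0.09, lower by -1.43 ± 0.14 (adjusted p = 0.00444). Nip7 lay at 1.01, 1.13 and 1.07 against 0.29, 0.07, -0.09, -0.12 and -0.24, lower by -1.09 ± 0.12 (adjusted p = 0.00702). The groups lay well apart for all 3. Bop1 lay at 2.89, 2.50 and 2.67 against 0.21, 1.42, 0.25, 0.48 and -0.27, lower by -2.27 ± 0.36 (adjusted p = 0.0216). Utp14a lay at 2.11, 1.88 and 1.49 against 0.01, 0.08, 0.90, 0.81 and 0.00, lower by -1.47 ± 0.29 (adjusted p = 0.0369). Nop2 (-1.40 ± 0.32, adjusted p = 0.0506), Npm1 (1.05 ± 0.24, 0.0518) and Rrp12 (-1.71 ± 0.41, 0.0564) did not pass.

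Without clone replicate 4, 7 genes were lower at the 8-cell stage, the differences of the 5 lay between -2.49 and -1.06, and their adjusted p between 0.00431 and 0.0422. Over all left-out arrays the count was 3 to 7. Wdr12, Ebna1bp2 and Nip7 held each time, Bop1 was lost in 4 of 8 fits (any 1 IVF array or clone replicate 3, highest adjusted p 0.0786) and Utp14a in 6 (highest 0.121). With the 3′/5′ difference as a covariate 7 genes were lower. None passed with the hybridisation controls, although the differences were -2.39 for Wdr12, -1.95 for Bop1 and -1.39 for Ebna1bp2. Other probe sets of Wdr12 were at -0.97 and 0.10, of Ebna1bp2 at 0.25 and 0.03, of Utp14a at -0.92, of Bop1 at -0.29 and of Nip7 at -0.09, none past the threshold. Beside these differences, 3 of 7 inner cell mass markers were lower in 4-cell and 5 of 7 in 8-cell clones, and their mean was 1.31 to 1.74 in IVF 8-cell embryos and -0.53 to 0.71 in clones. Oocyte markers were lower in 8-cell clones for 4 of 12, with means of 0.16 to 0.53 in IVF embryos and -1.11 to -0.62 in clones. Without clone replicate 4, 3 of 7 inner cell mass and 4 of 12 oocyte markers were lower. Their part in the result was not tested.

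**Figure D5:**
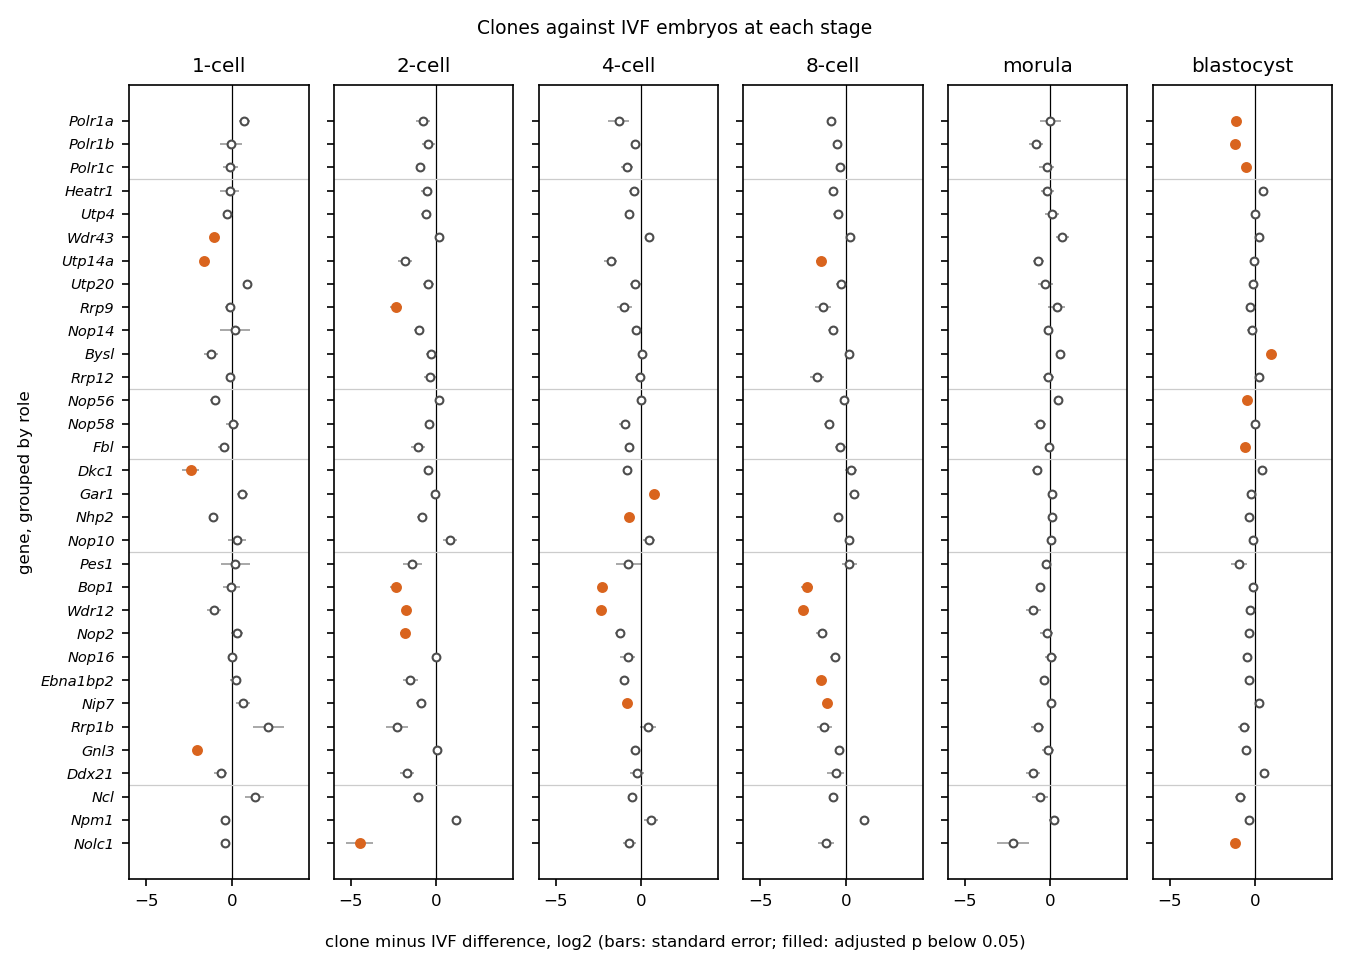
Clone minus IVF difference (log2, horizontal axis) of each of the 32 genes at 6 stages with its standard error; filled points have an adjusted p below 0.05 and grey lines part the roles. Most points lie left of 0 at the 2-, 4- and 8-cell stages, filled ones being mostly large subunit genes, and at the blastocyst stage all 3 RNA polymerase I genes are filled.

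In morulae no gene of the 32 passed in limma, and 4 had an unadjusted p below 0.05; of all genes 0.0879% were lower and 0.0770% higher in clones. The median difference was -0.15. Bop1 was at -0.60 ± 0.20 (adjusted p = 0.352) and Wdr12 at -1.01 ± 0.44 (adjusted p = 0.528), with overlapping arrays. Nolc1 had the largest difference, -2.19 ± 0.96, with clones from -5.21 to -1.12 and IVF morulae from -1.23 to 0.25. Nop58, a scaffold protein of box C/D particles, was at -0.62 and Ddx21 at -1.01. The step from the 8-cell stage to the morula was tested for a difference too. It differed for 4 genes, where 5.66% of all genes differed: Bop1 by 1.67 ± 0.47 (adjusted p = 0.0250), Rrp12 by 1.59 ± 0.45 (0.0270), Wdr12 by 1.51 ± 0.47 (0.0451) and Nip7 by 1.13 ± 0.35 (0.0444). The means of all 4 fell in IVF embryos. In clones those of Bop1 and Rrp12 fell less, while those of Wdr12 (0.26 and then 0.3) and Nip7 (-0.02 and then 0.17) did not fall. Without clone replicate 4 of the 8-cell stage Bop1 (1.69) and Rrp12 (1.31) passed and Wdr12 (1.48, adjusted p = 0.0595) and Nip7 (1.11, 0.0592) did not. Leaving out other arrays gave 0 to 5 genes, and 1 of 16 removals, that of IVF morula replicate 1, ended all 4 calls. With the hybridisation controls as a covariate none passed. Other probe sets of Bop1 (0.43), Wdr12 (0.04 and -0.01) and Nip7 (-0.16) did not pass in this difference. From the 2- to the 4-cell stage Nolc1 alone differed, by 3.82 ± 0.83 (adjusted p = 0.00553, beside 2.64% of all genes), with steps of 3.83 in clones and 0.00 in IVF embryos. The other probe sets of Nolc1 were at -0.10 and 0.12 in this difference and did not pass, so it rests on the probe set that stood for the gene. No gene differed in limma in the 4- to 8-cell step, where 2 had an unadjusted p below 0.05 and 1.31% of all genes differed, or from morula to blastocyst, with 3 such genes and 1.62% of all genes.

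In blastocysts 6 genes were lower and 1 higher in clones, against 3.34% and 2.84% of all genes. Of the 6, Nolc1 had passed at an earlier stage. All 3 RNA polymerase I subunit genes were lower, Polr1b by -1.18 ± 0.15 (adjusted p = 0.0108), Polr1a by -1.12 ± 0.14 (0.0100) and Polr1c by -0.54 ± 0.07 (0.0130). Polr1b, which encodes the other large core subunit beside Polr1a, lay at 0.81, 0.57 and 1.11 in IVF blastocysts and at -0.09, -0.53, -0.51, -0.25 and -0.36 in clones. Box C/D genes followed: Fbl (fibrillarin), the methyltransferase of these particles, lay at 0.69, 0.50 and 0.65 against -0.08, 0.17, 0.05, 0.02 and 0.00, lower by -0.58 ± 0.06 (adjusted p = 0.00792). Nop56 lay at 0.40, 0.46 and 0.55 against -0.04, -0.12, 0.13, -0.02 and -0.02, lower by -0.49 ± 0.06 (adjusted p = 0.00993). Both shifts are small next to those of Bop1 or Wdr12 at earlier stages, and neither gene overlapped between the groups. Nolc1 lay at -1.16, -0.90 and -1.04 against -2.21, -2.56, -2.11, -2.06 and -2.01, lower by -1.16 ± 0.13 (adjusted p = 0.00911). Bysl was higher in clones by 0.94 ± 0.09 (adjusted p = 0.00590), at -1.13, -1.02 and -0.93 in IVF embryos and 0.00, -0.03, -0.21, 0.07 and -0.27 in clones. The box C/D scaffold gene Nop58 was at -0.01, and no large subunit gene passed. Some of the 6 lay below 0 earlier without passing: Fbl was at -1.06 at the 2-cell stage, Polr1c at -0.96 and -0.81 at the 2- and 4-cell stages, and Polr1a at -1.31 at the 4-cell stage.

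Each blastocyst call held on leaving out any 1 array, with highest adjusted p between 0.0219 and 0.0454. The 3′/5′ difference was higher on clone arrays by 0.81 with no overlap, at -1.52 to -0.72 against -2.36 to -1.63 (exact permutation test, 2-sided, p = 0.0179, adjusted 0.0918), and with it as a covariate none of the 7 passed, with Polr1b at -0.84 (adjusted p = 0.223) and Bysl at 1.13 (0.0788). With the hybridisation controls, which overlapped here, as a covariate 6 passed, and Polr1c was at -0.53 (adjusted p = 0.0624). In a fit of all 51 arrays that shares 1 spread over the groups, none of the 32 passed at this stage, with Polr1b at an adjusted p of 0.117. The other probe sets of Fbl (-0.62, adjusted p = 0.0172) and Nop56 (-0.52, 0.133) lay close to the values above, that of Bysl was at 0.20 and of Polr1c at -0.06, and those of Polr1a ranged from -1.71 to 0.27. Inner cell mass markers had means of 2.16 to 2.38 in IVF blastocysts and 0.77 to 1.89 in clones, with 1 of 7 past the threshold. The 5 primitive endoderm markers all lay above 0 in clones, with a median difference of 0.73 and 1 of 5 higher. The part of these markers in the result was not tested.

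Across the 6 stages 19 of the 32 genes differed at 1 stage or more and 13 at none, where 19.8% of all genes differed at 1 or more. At 2 or more stages 5 of the 32 and 3.49% of all genes differed. Bop1 and Wdr12 were lower at 3 stages, and Nip7, Nolc1 and Utp14a at 2. At 3 or more stages 0.594% of all genes differed. These are calls of the probe set that stood for each gene. No other probe set of these genes passed at those stages, and some lay above 0. With the hybridisation controls as a covariate, of these calls only that of Nolc1 in blastocysts passed. Below 0 at all of the 2-, 4- and 8-cell stages were 22 of the 32 genes, beside 20% of all genes. The 13 that passed at no stage include the large subunit genes Pes1, Nop16, Rrp1b and Ddx21, the small subunit genes Heatr1, Utp4, Utp20, Nop14 and Rrp12, and Ncl, Npm1, Nop58 and Nop10. At the 2-cell stage Ncl was at -1.09 ± 0.26 (adjusted p = 0.0928), Ddx21 at -1.73 ± 0.42 (0.105), Rrp1b at -2.30 ± 0.64 (0.144) and Nop14 at -1.02 ± 0.30 (0.161). At the 4-cell stage Utp4 was at -0.69 ± 0.15 (0.0846) and Utp14a at -1.79 ± 0.40 (0.0850), and at the 8-cell stage Nop58 was at -0.99 ± 0.27 (0.0802). A p that misses the threshold does not show that these genes were alike.

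A further list held 134 genes of ribosome biogenesis and its control, of which 125 were measured, 9 of them Myc family and nucleolar stress genes. Their median clone difference was -0.14 at the 1-cell, -0.60 at the 2-cell, -0.53 at the 4-cell, -0.75 at the 8-cell, -0.07 at the morula and -0.15 at the blastocyst stage. At the 8-cell stage 25 were lower in clones and none higher, beside 4.47% and 2.15% of all genes, led by the exosome subunit gene Exosc1 (-1.60 ± 0.12), the RNA polymerase I subunit gene Polr1e (-1.59 ± 0.13) and Mphosph6 (-1.46 ± 0.16), an exosome partner. The 25 also include the transcription factor gene Myc at -2.83 ± 0.35 (adjusted p = 0.00984), named here after its value was seen. Without clone replicate 4 of that stage 22 were lower and none higher, beside 3.59% and 1.23% of all genes, and Myc was at -2.95 ± 0.35 (adjusted p = 0.0166). Without the 9 Myc family and nucleolar stress genes 23 of 116 were lower on all arrays and 20 without clone replicate 4. At the 2-cell stage 10 were lower and 2 higher, beside 1.86% and 0.511% of all genes: Nsa2 (-3.70 ± 0.25), Imp4 (-1.10 ± 0.10) and Ddx54 (-2.10 ± 0.31) led the lower ones, and Tsr1 (1.34 ± 0.15) and Mak16 (0.45 ± 0.08) were higher. At the 4-cell stage 10 were lower and 1 higher, beside 1.80% and 0.462% of all genes. The lower ones were led by Ddx51 (-1.45 ± 0.14), Spata5 (-1.55 ± 0.15) and Dcaf13 (-1.05 ± 0.11), and Polr2f (0.69 ± 0.13) was higher. The genes of this list were not counted with either quality measure as a covariate, nor by their other probe sets. The hybridisation controls did not overlap between clones and IVF embryos at the 1-, 2-, 4- and 8-cell stages. With them as a covariate, none of the group followed above passed at the 2-, 4- and 8-cell stages. The part of array processing in the counts of this list was thus not tested.

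Among 1-cell embryos 8 of the 125 were lower and 6 higher in clones, beside 2.79% and 3.52% of all genes, so the share of higher genes was near that of all genes. Lower were Polr1e (-2.24 ± 0.14), Noc3l (-2.26 ± 0.32) and Rsl24d1 (-1.45 ± 0.21), and higher were the Myc family gene Mxd1 (3.02 ± 0.28), Nsa2 (2.27 ± 0.30) and the RNA polymerase I initiation factor gene Ubtf (1.52 ± 0.27). Nsa2, a large subunit factor, thus lay above IVF embryos at the 1-cell and below them at the 2-cell stage. In blastocysts 11 were lower and 3 higher, beside 3.34% and 2.84% of all genes, the higher share again near that of all genes, with Taf1c (-1.31 ± 0.20), Pih1d1 (-0.37 ± 0.06) and Polr2f (-0.85 ± 0.13) lower and Bud23 (0.64 ± 0.07), Taf1d (0.98 ± 0.16) and Rrn3 (0.30 ± 0.06) higher. In the first cleavage step 79 of the 125 rose and 13 fell in IVF embryos, beside 17.2% and 18.7% of all genes, with a median of 2.05. In clones 79 rose and 18 fell, beside 16.7% and 24.6%, with a median of 1.64. The 25 lower genes of the 8-cell stage included 4 of 12 for RNA polymerase I and its initiation, 7 of 39 for the small and 5 of 40 for the large subunit, and 5 of 10 for particle assembly. Without clone replicate 4 these were 3 of 12, 7 of 39, 5 of 40 and 3 of 10.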

How the data were processed

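Each array held RNA of 1 oocyte or embryo, extracted with a micro-scale column kit, amplified in a two-cycle synthesis and labelled with biotin, per the labels' protocols. The authors made the values with RMA, per the submitters' processing notes; the version is not given in the sources used here. The deposited values are log2, centred for each probe set (in 94.3% exactly 1 array is at 0); the base of the logarithm was taken from the values, 1 probe set spanning 13.8 units against 11.1 for a 16-bit scanner in natural logarithms. Centring leaves no absolute level, and without detection calls signal over background was not judged. Arrays have no read depth; their number limits the precision.

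Of 45101 probe sets, 64 were controls, 34945 had 1 gene symbol in the platform annotation, 932 several and 9160 none. Per gene the one with the largest SD over 51 arrays was used (22 of the 32 genes have more than 1; the 34 others correlate with it at -0.28 to 0.98). Gene symbols can be old. Clones and IVF embryos were compared within each stage (8 arrays), steps in a fit of 21 oocyte and IVF arrays or of 30 clone arrays, and differences of steps in 51 arrays, with limma 3.58.1 (lmFit, eBayes) in R 4.3.3, tested on simulated data. The members, the gene lists and the alternatives were chosen with earlier results of these data known. Genes named are all members past the threshold in clone comparisons and differences of steps, the up to 4 largest rises and falls past the threshold per step, and up to 3 other ribosome biogenesis genes each way per stage by smallest adjusted p. Replicate numbers count embryos; same-numbered clone and IVF residuals correlated at -0.204 to 0.102 and were not treated as pairs. Alternatives changed the scaling, probe set, filter, covariates, variance model, fit and arrays; the 3′/5′ covariate, and the gene lists without clone replicate 4 of the 8-cell stage or without the Myc family, were added after seeing the data. Proteins and genome sequence beyond promoters were not used here.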

Additional observations from a re-analysis of the deposited data

Results flagged for a closer look

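The step from one stage to the next was compared between clones and IVF embryos by a test of the difference of steps (limma, 51 arrays, adjusted over 18193 genes), and the genes that passed are gathered here with that difference, clone step minus IVF step. From the 1- to the 2-cell stage the step was smaller or reversed in clones for Rrp1b (-4.45), Nolc1 (-4.12), Ncl (-2.44), Bop1 (-2.36), Rrp9 (-2.27), Nop2 (-2.16), Ebna1bp2 (-1.76), Nip7 (-1.59) and Utp20 (-1.40). It was larger in clones for Gnl3 (2.07), Dkc1 (1.93), Npm1 (1.49), Wdr43 (1.21) and Nop56 (1.18). Of these 14 differences the one of Utp20 lost its call in 4 of 16 fits without 1 array, those of the other 13 in none. From the 2- to the 4-cell stage Nolc1 differed by 3.82, while its other probe sets were at -0.10 and 0.12. From the 8-cell stage to the morula the fall seen in IVF embryos was smaller or absent in clones for Bop1 (1.67), Rrp12 (1.59), Wdr12 (1.51) and Nip7 (1.13). Steps with a shared stage are not separate evidence: the 2-cell arrays of Nolc1 enter both of its differences.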

How the results depend on the processing

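Counts are of the 32 genes past the threshold. Without the 30% of genes of lowest SD, 7 passed at the 1-cell and 8 at the 8-cell stage, and 1 in the difference of 4- to 8-cell steps. With a replicate block 0 passed at each of the 1-, 2-, 4- and 8-cell and blastocyst stages and 1 in the 4- to 8-cell difference; the numbers did not pair the embryos, and the block moved no other count by over 1.5 times. With the hybridisation controls as a covariate 1 passed at the 1-cell and 0 at the 2-, 4- and 8-cell stages, 10 from MII oocyte to 1-cell, 8 from IVF 8-cell to morula and 3 into the blastocyst; the differences of steps gave 3 (1- to 2-cell), 1 (4- to 8-cell), 0 (8-cell to morula) and 1 (morula to blastocyst). With the 3′/5′ difference 0 passed at the 2-cell, 2 at the 4-cell and 0 at the blastocyst stage, 2 from IVF morula to blastocyst, and 1 in each of the 4- to 8-cell and morula to blastocyst differences. One fit of 51 arrays gave 12, 12, 8, 10, 1 and 0 from the 1-cell stage to the blastocyst. Quantile normalization again gave 0 at the 2-cell stage, 10 from MII oocyte to 1-cell, 12 and 1 in the IVF 2- to 4-cell and 4- to 8-cell steps, 10 from clone 8-cell to morula, and 3, 2 and 1 in the 1- to 2-cell, 2- to 4-cell and morula to blastocyst differences. The mean of all probe sets gave 3 at the 2-cell and 3 at the 4-cell stage, and 9 and 0 in the first 2 differences. The probe set with the second largest SD gave 3, 2, 2 and 2 at the 2-cell, 4-cell, 8-cell and blastocyst stages, 12 from MII oocyte to 1-cell, 19 from IVF 1- to 2-cell, 9 from clone 8-cell to morula, and 5 and 2 in the 1- to 2-cell and 8-cell to morula differences.

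With that probe set the sign turned for Bop1 (0.11 at the 2-cell stage, 0.18 in the 1- to 2-cell difference), Ebna1bp2 (0.25, 8-cell), Nip7 (0.94, 4-cell; -0.16, 8-cell to morula difference), Nolc1 (0.41, 2-cell; 0.85 and -0.10 in the first 2 differences), Polr1a (0.27, blastocyst), and Ncl (0.68), Nop56 (-0.91) and Wdr43 (-0.91) in the 1- to 2-cell difference; with the mean of all probe sets it turned for Ncl (0.42) and Nip7 (0.05, 4-cell). The cause was not tested in any of these cases. Without 1 array at a time the counts were 1 to 4, 0 to 4, 5 to 6, 3 to 7, 0 to 0 and 7 to 8 from the 1-cell stage to the blastocyst, 19 to 20, 27 to 29, 7 to 10, 0 to 0, 9 to 14 and 9 to 12 in the IVF steps, 28 to 29, 11 to 15, 2 to 3, 4 to 6 and 9 to 12 in the clone steps, and 13 to 15, 1 to 1, 0 to 1, 0 to 5 and 0 to 0 in the differences. Array centring and robust eBayes kept each count within 1.5 times. Each group has 3 or 5 embryos, which limits the precision, and signal over background was not judged.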

Other observations

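The 18S ribosomal RNA control probe sets stood out at the 1-cell stage in both kinds of embryo, at 3.21 to 3.94 on IVF and 3.38 to 3.75 on clone arrays, with -0.52 to -0.10 in MII oocytes and -1.78 to 0.81 at all later stages. They lay higher in clone than in IVF morulae by 0.80 and lower in clone than in IVF blastocysts by -0.49, without overlap (exact permutation test, 2-sided, p = 0.0357 for each, adjusted 0.0918 over 18 quality tests). These probe sets read amplified cRNA, so their values are no measure of the amount of ribosomal RNA.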
